A study of Anguilla anguilla with 3 samples.

Results

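The genes described here are lysozymes and proteins of phagocytes, the white blood cells that engulf microbes and dead cells, measured in the ovary of the European eel (Anguilla anguilla). They are the rows named lysc, lyg, itam, cor1a or plsl in the deposited gene table. These names cover 12 of the 45974 predicted genes: 1 lysc row, 3 lyg rows, 2 itam rows, 3 cor1a rows and 3 plsl rows, each kept apart by its gene identifier. The names were chosen by their read counts in these same libraries, in which they stood higher in the matured eel, so their levels are a description and no test was made on them. RNA was sequenced from the ovary of 1 yellow eel (the growing stage), 1 prepubertal silver eel (the stage that prepares to migrate) and 1 matured eel taken after spawning. The yellow and matured eels came from Lake Veerse in spring, and the silver eel came from Lake Grevelingen in December. Pieces from 3 parts of each gonad were pooled, so a library describes 1 animal, and stage and individual cannot be told apart in any comparison. In comparisons with the silver eel, lake and season cannot be told apart from them either.

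Lysozymes are secreted or lysosomal enzymes that cut the peptidoglycan of bacterial cell walls, and vertebrates have a chicken type (lysc) and a goose type (lyg). Integrin alpha-M (itam, CD11b in mammals) pairs with integrin beta-2 to form a complement receptor with which neutrophils and macrophages adhere and engulf. Coronin-1A (cor1a) and plastin-2 (plsl, also called L-plastin) are actin-binding proteins which in mammals are made mainly by blood cells, lymphocytes included. In the fish ovary, leukocytes are known to take part, beside cells of the follicle itself, in clearing follicles that degenerate or are left empty after ovulation.

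The reads assigned to genes numbered 27811764 (yellow), 41426808 (silver) and 30137882 (matured). Levels are given as CPM, counts per 1000000 reads after scaling the libraries to a common size, and 1 read was worth 0.0376, 0.0265 and 0.0289 CPM in the yellow, silver and matured library. Folds are ratios of such levels with an exact 95% interval that covers counting error only, since 1 eel per stage gives no replicate spread. All 26 rows of the fixed oocyte list had at least 1 CPM on average, and they summed to 58490, 46858 and 39341 CPM in the yellow, silver and matured library. In bulk tissue, more phagocytes, more RNA per phagocyte and RNA from other cells cannot be told apart.

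The chicken-type lysozyme was scarce in the yellow ovary and far more abundant in the matured one. The lysc row (g26875) had 11, 262 and 1077 reads in the yellow, silver and matured libraries, which is 0.413, 6.95 and 31.1 CPM. The silver level was 16.8-fold above the yellow one (95% interval 9.24 to 34.1), and the matured level was 4.48-fold above the silver one (3.91 to 5.15). From yellow to matured the difference was 75.3-fold (41.9 to 151), the widest among the 11 rows with reads in all 3 libraries. Its interval overlaps those of several other rows, among them plsl g30240 at 60.7-fold (25.8 to 188) and itam g10214 at 50.9-fold (33.2 to 82.5). This gene model is only 222 bases long, and its best protein match was a lysozyme C with 81.8% similarity, so it may hold only part of the gene.

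The goose-type lysozymes fell into 1 row that was already abundant in the yellow ovary and 2 rows that were high in the matured ovary. The row g4949 had 48.1, 65.65 and 71.5 CPM in the yellow, silver and matured libraries, from 1279, 2476 and 2474 reads. Its steps were small, 1.37-fold (1.28 to 1.46) and then 1.09-fold (1.03 to 1.15). The row g11846 had 2.03, 8.62 and 50.9 CPM, from 54, 325 and 1762 reads. It was 4.25-fold higher in silver than in yellow (3.18 to 5.77) and 5.91-fold higher in matured than in silver (5.25 to 6.67). The row g11847, whose identifier directly follows that one, had 0, 1 and 190 reads in the same order, the last being 5.49 CPM. It was at least 48.7-fold higher in matured than in yellow against a floor of 3 counts in the yellow library (0.113 CPM). Against the single silver read its ratio was 207 with a counting interval of 36.7 to 8222. Its match to a lysozyme g was weak by E value, 0.000198 against 4.8e-68 for g11846 and 2.75e-69 for g4949. The similarity was 62% for g11847, 68.7% for g11846 and 69.4% for g4949.

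**Figure D1:**
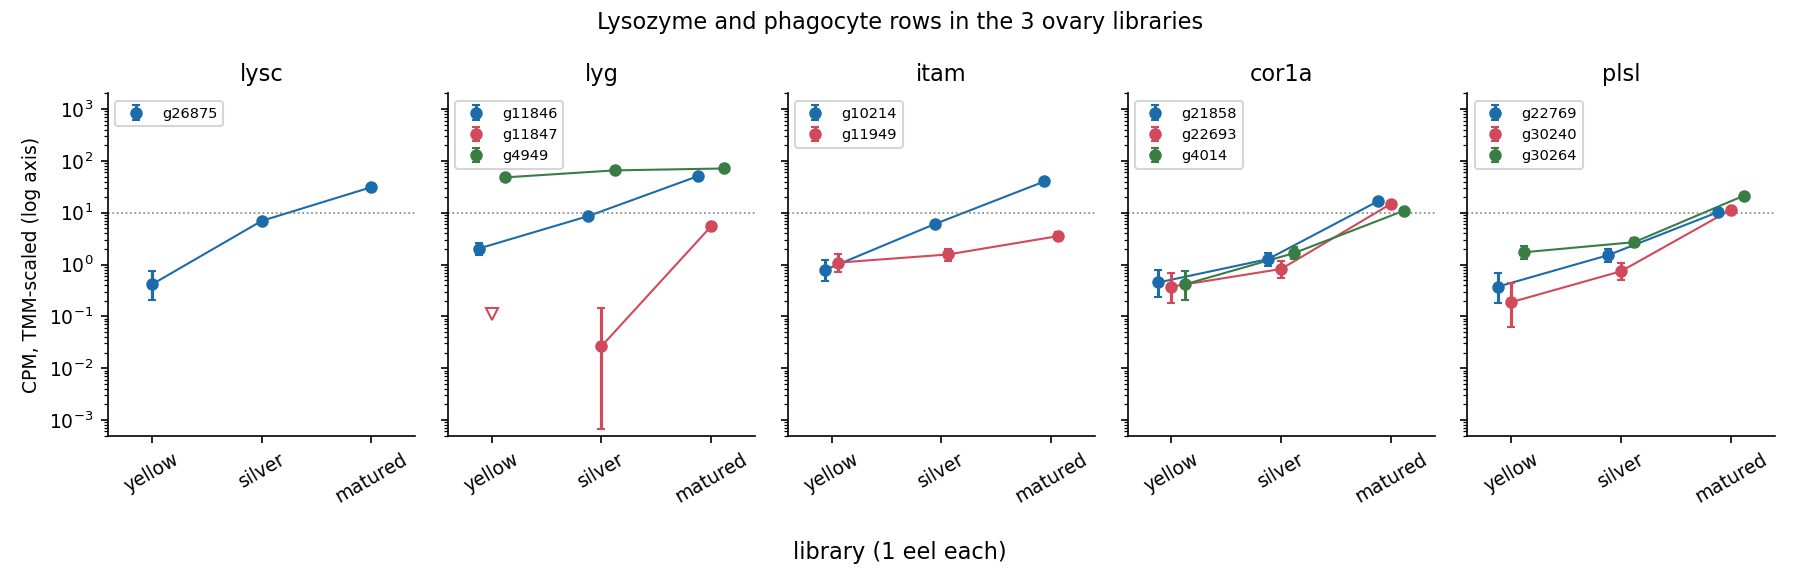
Level of each of the 12 rows in the yellow, silver and matured library, 1 eel each, in TMM-scaled CPM on a log axis, with a panel per name and exact 95% counting intervals as bars. The open triangle marks the yellow library's floor of 3 counts for g11847, which had no reads there, and the dotted line is 10 CPM. Every row is highest in the matured library, and g4949 is the only row above 10 CPM in the yellow and silver libraries.

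The 2 integrin alpha-M rows differed in the same manner, with 1 copy much higher in the matured ovary and the other higher by less. The row g10214 had 21, 228 and 1391 reads in the yellow, silver and matured libraries, or 0.789, 6.05 and 40.2 CPM. It was 7.66-fold higher in silver than in yellow (4.89 to 12.6) and 6.65-fold higher in matured than in silver (5.78 to 7.68). The row g11949 had 1.09, 1.56 and 3.53 CPM from 29, 59 and 122 reads. Its first step of 1.44-fold had an interval of 0.905 to 2.32, which includes no difference, and its second step was 2.25-fold (1.64 to 3.13). Similarity to mammalian integrin alpha-M was 50.4% for g10214 and 52.1% for g11949, so either may be another leukocyte alpha chain, and no row of the table carries the names ital, itax or itad, those of the other alpha chains that pair with integrin beta-2.

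The rows of the beta partner were all higher in the matured library than in the silver one, while the intervals of their first steps overlapped. Integrin beta-2, itb2, was named for this pairing after its values were seen. Its main row g12768 had 1.05, 1.06 and 8.41 CPM in yellow, silver and matured. The silver to yellow ratio was 1.01 (0.606 to 1.70), where itam g10214 stood at 7.66. The matured to silver ratio was 7.93 (5.68 to 11.3). The other 2 itb2 rows stayed at or under 1.62 CPM in each library. Of them g35688 had 1, 11 and 56 reads, a first step of 7.76-fold with an interval of 1.13 to 334 and a second of 5.55-fold (2.88 to 11.7). The row g19179 had 2, 4 and 31 reads and a first step of 1.41-fold (0.202 to 15.6).

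The actin-binding proteins were low in the yellow and silver ovaries and high in the matured ovary, in all 6 of their rows. The cor1a row g21858 had 0.451, 1.27 and 16.6 CPM in the yellow, silver and matured libraries, from 12, 48 and 574 reads. The cor1a row g22693 had 10, 31 and 513 reads, or 0.376, 0.822 and 14.8 CPM, and g4014 had 11, 63 and 380 reads, or 0.413, 1.67 and 10.98 CPM. In matured versus silver these rows were 13.0-fold (9.70 to 17.9), 18.0-fold (12.5 to 26.8) and 6.57-fold (5.02 to 8.73) higher, so the intervals of g21858 and g4014 do not overlap. Of the plastin-2 rows, g30264 was the most abundant, with 46, 102 and 738 reads, or 1.73, 2.70 and 21.3 CPM. The row g30240 had 5, 28 and 395 reads (0.188, 0.742 and 11.4 CPM), and g22769 had 10, 57 and 353 reads (0.376, 1.51 and 10.2 CPM). In matured versus silver they were 7.89-fold (6.40 to 9.80), 15.4-fold (10.5 to 23.4) and 6.75-fold (5.09 to 9.09) higher. The plastin-2 models are 390 to 568 bases long and the cor1a models 806 to 1722 bases. Whether rows that share a name are separate genes or pieces of 1 gene model cannot be told from the table.

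Counting whole reads per name gave the same order of libraries for each of the 5 names. The cor1a rows together went from 1.24 CPM in yellow over 3.77 in silver to 42.4 in matured, and the plsl rows from 2.29 over 4.96 to 42.9. The itam rows went from 1.88 over 7.61 to 43.7 CPM. These sums are not corrected for transcript length, so they compare libraries within a name and not one name with another. The lyg rows went from 50.1 over 74.3 to 127.9 CPM, with g4949 in the majority. Without g4949, a choice made after its values were seen, the other 11 rows summed to 7.86, 31.9 and 217 CPM, which is 4.06-fold (3.51 to 4.73) and then 6.78-fold (6.38 to 7.22).

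By the rule used for all genes, in matured versus silver 9 of the 12 rows counted as higher by 4-fold or more and 0 as lower. That rule asks for a log2 ratio of 2 or more after adding 1 CPM to both libraries, and for at least 10 CPM in the higher one. Of all 12573 genes with that level, 2.23% counted as higher and 4.61% as lower. The 3 rows not counted were lyg g4949, lyg g11847 and itam g11949, of which the last 2 did not reach 10 CPM in any library. The 9 counted rows lay under 10 CPM in the yellow and silver libraries. They passed the level filter only through the matured library, so they could be counted as higher or not at all. In matured versus yellow the same 9 rows were counted as higher and 0 as lower, against 3.39% and 2.59% of 12553 genes. This comparison shares its libraries with the others and is no separate evidence. In silver versus yellow 0 of the 12 rows were counted in either direction, against 3.69% higher and 1.43% lower of 12462 genes. The row g4949 was the only one with 10 CPM there, and without that filter lysc alone of the 12 would have been counted, the other 11 having log2 ratios of 0.04 to 1.98. The median log2 ratio over all 12 rows was 0.60 in silver versus yellow and 2.49 in matured versus silver, beside 0.01 and -0.03 over 24571 genes of at least 1 CPM on average. Since the names were chosen for such values, these counts and medians describe the choice. Scaling by library totals alone moved the median of all genes in matured versus silver from -0.03 to 0.25 and the share of higher among all calls from 32.7% to 57.6%, while the member count stayed at 9. With DESeq2 size factors lysc fell out of that count, at a log2 ratio of 1.97 in place of 2.02.

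**Figure D2:**
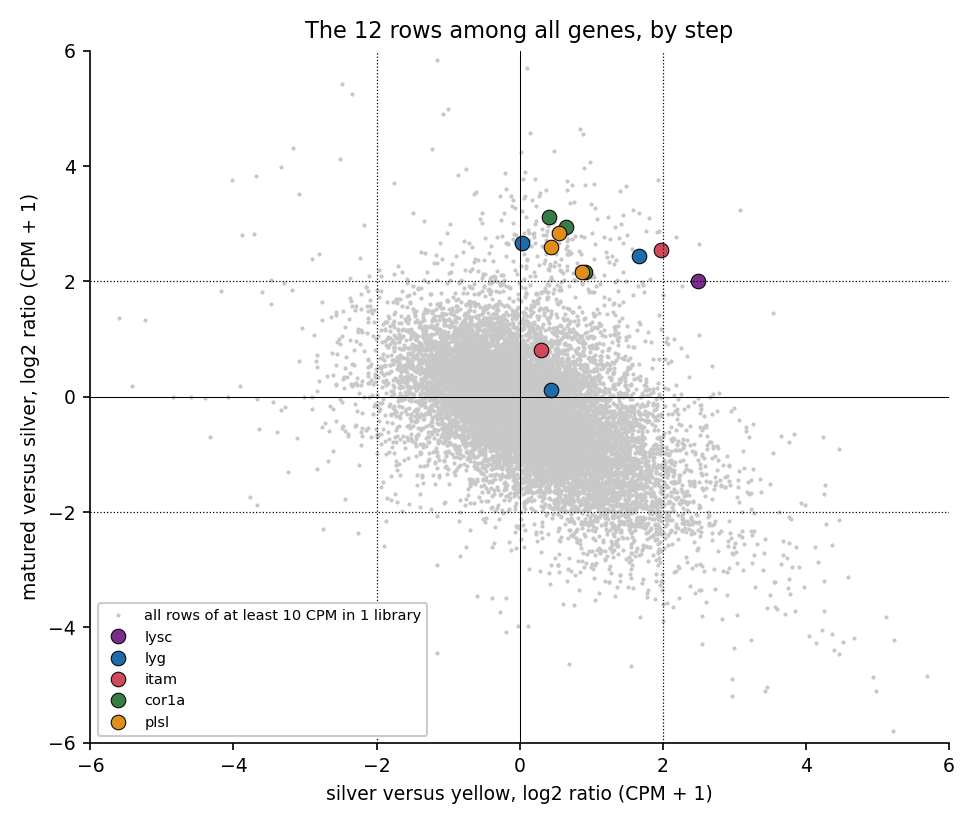
Log2 ratio of silver versus yellow (x axis) against matured versus silver (y axis), both after adding 1 CPM, for the 12 rows in colour and for 13328 of 13333 genes with at least 10 CPM in some library in grey (5 lie outside the axes). Both axes hold the silver library, with opposite sign, so a downward slope of the grey cloud is expected from that alone. The cor1a and plsl rows and lyg g11847 lie high and near the vertical axis, lysc, lyg g11846 and itam g10214 lie up and to the right, and lyg g4949 and itam g11949 lie near the origin.

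The rows fell into different courses over the 3 libraries. With 1 CPM added, the actin-binding rows had most of their log2 difference in the second step: 0.65 then 2.95 for cor1a g21858, 0.41 then 3.12 for g22693, and 0.44 then 2.59 for plsl g30264. For itam g10214 (1.98 then 2.55) and lyg g11846 (1.67 then 2.43) the steps were closer in size. For lysc the first step was the larger one, 2.49 against 2.02. In plain ratios some of this contrast was absent. The steps were 4.04 then 6.57 for cor1a g4014 and 4.02 then 6.75 for plsl g22769, beside 4.25 then 5.91 for lyg g11846. They were 2.82 then 13.0 for cor1a g21858 and 2.19 then 18.0 for g22693. For plsl g30240 they were 3.95 then 15.4, and for g30264 1.56 then 7.89. The second step was the larger in 10 of the 12 rows, lysc and lyg g4949 being the exceptions, all on the scale with 1 CPM added, which shrinks a step that starts from a low level. With 0.1 CPM added the first step was also the larger for itam g10214, 2.79 against 2.71, as it was in its plain ratios of 7.66 and 6.65. With 5 CPM added lysc was no longer an exception, and neither was lyg g4949 with scaling by library totals or in RPKM. Each of the 12 rows had a higher level in silver than in yellow and in matured than in silver, an order found in 16.7% of genes of at least 1 CPM on average. Since the names were chosen for standing higher in the matured library, this order in part describes the choice. For lyg g11847 the first of these steps rests on 1 read, and for itam g11949 its interval includes no difference (0.905 to 2.32).

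The share of each copy among the reads of its name differed between libraries for lyg, itam, cor1a and plsl. Shares carry exact 95% binomial intervals. The row g4949 made up 95.9% of lyg reads in the yellow library (94.7 to 96.9), 88.4% in the silver (87.1 to 89.5) and 55.9% in the matured library (54.4 to 57.4). The row g11846 made up 4.05%, 11.6% and 39.8%, and g11847 made up 4.29% in the matured library (3.71 to 4.93). For itam, g10214 went from 42.0% in yellow (28.2 to 56.8) to 79.4% in silver (74.3 to 83.97) and 91.9% in matured (90.4 to 93.3). The intervals of g4949 and of g10214 do not overlap between any of the libraries. The 3 cor1a rows had about equal shares in the yellow library, 30.3% to 36.4%, with wide intervals from only 33 reads, and g4014 was the largest in silver with 44.4% (36.0 to 52.9) and the smallest in matured with 25.9% (23.7 to 28.2), intervals that do not overlap. Among plsl rows g30264 led in every library, with 75.4% in yellow (62.7 to 85.5), 54.5% in silver (47.1 to 61.8) and 49.7% in matured (47.1 to 52.2), so its yellow share lay above both others by its interval. In all 3 libraries every read of the 12 rows was a unique alignment, so reads shared between copies did not enter these shares.

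**Figure D3:**
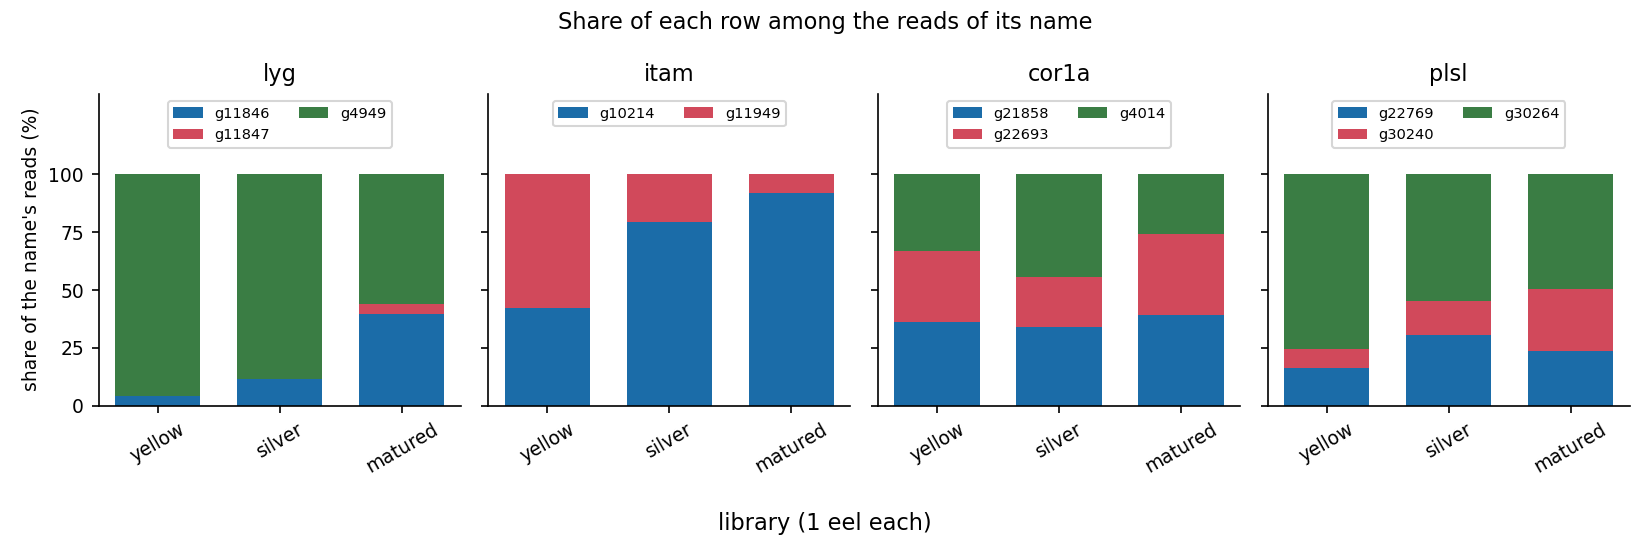
Share of each row among the reads of its name (percent) in the yellow, silver and matured library, 1 eel each, as stacked bars for lyg, itam, cor1a and plsl. The green g4949 part of lyg shrinks from 95.9% to 55.9%, and the blue g10214 part of itam grows from 42.0% to 91.9%.

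Levels of different genes were compared per transcript length, as the authors' RPKM (reads scaled to transcript length and library total), whose intervals again cover counting error. In the yellow library lyg g4949 led with 34.2 RPKM, and the next row, plsl g30264, had 2.91. The rows with reads after it had intervals that overlapped those of their neighbours, except between lyg g11846 (1.76 RPKM) and plsl g22769 (0.644 RPKM). In the silver library the order was lyg g4949 (44.4 RPKM), lysc (28.5 RPKM), lyg g11846 (7.09 RPKM) and plsl g30264 (4.34 RPKM), each apart from the next by its interval. From plsl g22769 (2.47 RPKM) down to itam g11949 (0.622 RPKM), the 7 rows each had an interval that overlapped the next. In the matured library lysc led with 161 RPKM, followed by lyg g4949 with 61.0 RPKM, lyg g11846 with 52.9 RPKM, plsl g30264 with 43.1 RPKM and plsl g30240 with 33.6 RPKM. The cor1a row g22693 (21.1 RPKM) and plsl g22769 (21.0 RPKM) could not be ordered. Below them stood cor1a g21858 with 13.9 RPKM, itam g10214 with 9.39 RPKM, cor1a g4014 with 7.32 RPKM, lyg g11847 with 5.40 RPKM and itam g11949 with 1.77 RPKM. The place of lysc rests on a model of 222 bases, the shortest of the 12, for which a length of 222 may be too small. Among genes with reads, lyg g4949 stood above 88.2% in the yellow library by CPM and lysc above 23.1%, while in the matured library they stood above 93.4% and 84.5%.

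Other genes of phagocytes were read from lists of names. The median log2 ratio of matured versus silver was 1.93 for the oxidase list (6 rows of at least 1 CPM on average), 1.24 for the adhesion list (4 rows) and 0.72 for the lineage list (24 rows). The median was 0.57 for the granule and lysosome list (15 rows) and 0.18 for the receptor list (9 rows). A list of reference genes had 0.44 (14 rows), and no test compared the lists. The phagocyte oxidase is the enzyme complex that makes superoxide in the phagosome. Of its 7 rows, 3 were testable in matured versus silver at 10 CPM, 2 of them at least 4-fold higher and 0 lower, against 2.23% and 4.61% of all genes. Rows counted as higher there, and in the lineage and granule lists below, lay under 10 CPM in the yellow and silver libraries. Such rows could be counted as higher or not at all. The membrane subunit cy24a (p22phox) had 1.77, 3.87 and 21.5 CPM in the yellow, silver and matured libraries and was 5.55-fold higher in matured than in silver (4.64 to 6.67). The GTPase rac2 had 0.752, 1.78 and 12.4 CPM, a second step of 6.99-fold (5.40 to 9.19). The catalytic subunit cy24b (gp91phox, g7735) followed at a lower level with 0.226, 0.928 and 8.24 CPM, while the second cy24b row g6637 had 6, 20 and 0 reads. The organizer ncf1 had 0.0752, 0.318 and 3.12 CPM. The subunit ncf4 went the other way, with 34.7, 22.3 and 12.1 CPM.

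The list of leukocyte lineage and signalling genes had 15 rows testable in matured versus silver, of which 4 were at least 4-fold higher and 0 lower, with a median log2 ratio of 0.72 over 24 rows. Those 4 were arc1b, spi1, lapm5 and ptprc. The transcription factor spi1 (PU.1), which directs myeloid development, had 0.489, 1.33 and 15.3 CPM in the yellow, silver and matured libraries and was 11.6-fold higher in matured than in silver (8.63 to 15.8). The Arp2/3 actin-branching subunit arc1b (g10069) had 0.752, 3.21 and 27.0 CPM, and the lysosomal membrane protein of blood cells lapm5 had 0.789, 3.37 and 22.7 CPM. The phosphatase ptprc (CD45), carried by nucleated blood cells in mammals, had 1.13, 2.23 and 13.3 CPM, a second step of 5.97-fold (4.72 to 7.62). The macrophage growth factor receptor csf1r (g20676) reached 2.17 CPM in the matured library from 1 read in the yellow one, and its other row had no reads. Of the 24 rows, 15 were higher in matured than in silver. All 36 rows of the list summed to 498, 670 and 629 CPM in the yellow, silver and matured libraries. The kinase syk (g3308) had 322, 274 and 239 CPM and the phosphatase ptn6 (g10074) had 71.4, 90.1 and 39.0 CPM, both lowest in the matured ovary. Some members were highest in the silver ovary. The phosphatase ship1 had 30.8, 129.7 and 65.2 CPM, and cebpb (g6933) had 9.70, 60.5 and 37.8 CPM, while the second cebpb row g6894 had 8.27, 20.2 and 42.9 CPM. Of 8 rows of the list testable in silver versus yellow, 2 were at least 4-fold higher, ship1 and cebpb g6933, against 3.69% of all genes.

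Granule, lysosome and receptor genes were mixed. Of 11 testable granule and lysosome rows, 2 were at least 4-fold higher in matured versus silver and 0 lower, against 2.23% and 4.61% of all genes. They were mpeg1 (g27768), a pore-forming protein of macrophages, with 0.0752, 1.94 and 12.1 CPM in the yellow, silver and matured libraries, and the actin-capping protein capg (g3695), with 0.188, 0.875 and 11.1 CPM. For mpeg1 g27768 the plain ratio was 25.7-fold (6.88 to 217) in the first step, from 2 yellow reads, and 6.27-fold (4.88 to 8.15) in the second, while with 1 CPM added the log2 ratios were 1.45 and 2.16, the second being the larger. The cathepsin S row cats g1076 was at 1853, 4798 and 1445 CPM, and cd68, a lysosomal protein used as a macrophage marker in mammals, was at 649, 117 and 144 CPM and so highest in the yellow ovary. Of the receptor rows, 2 were testable and 0 were counted as higher or lower in matured versus silver. The scavenger receptor stab1 had 3.53, 5.44 and 16.4 CPM, and the chemokine receptor cxcr4 (g44825) had 16.1, 44.9 and 11.2 CPM. The complement receptor c5ar (g7116) had 2, 8 and 215 reads, which is 6.21 CPM in the matured library, and its other row had 1 read in all. Among adhesion genes the integrin activator urp2 (kindlin-3) had 9.17, 16.2 and 34.8 CPM and a second step of 2.15-fold (1.94 to 2.37).

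Relatives of the same protein families in part shared the direction of the second step. Of 15 coronin and plastin relatives with at least 1 CPM on average, 13 were higher in matured than in silver. Only 4 of those 15 were higher in silver than in yellow. For the integrin alpha relatives, 5 of 9 such rows were higher in matured than in silver and 4 in silver than in yellow. Of 5 testable coronin and plastin relatives, 1 was at least 4-fold higher in matured versus silver and 0 lower, against 2.23% and 4.61% of all genes. The median log2 ratio of these relatives was 0.72 over 15 rows. The counted row was cor2b g12166, a coronin of another class, with 4.32, 4.37 and 30.7 CPM in the yellow, silver and matured libraries. The plastin-3 row plst g6527, a plastin found in solid tissues, had 93.2, 76.1 and 127 CPM. The coronin coro6 had 26.5, 16.1 and 30.9 CPM, and the second cor2b row g15480 had 10.6, 7.66 and 13.3 CPM. Of the integrin alpha relatives, 3 were testable in matured versus silver and 0 were counted in either direction, and in matured versus yellow 4 were testable, 0 counted as higher and 1 as lower, against the background of 3.39% and 2.59% given above. The fibronectin receptor chain ita5 (g13306) had 65.7, 155 and 42.5 CPM, ita6 (g12899) had 24.0, 23.6 and 41.6 CPM, and itav (g7969) had 45.7, 54.7 and 85.2 CPM. The row counted as lower was ita11, with 22.0, 9.36 and 4.07 CPM, which was 5.39-fold lower in matured than in yellow (4.47 to 6.52).

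**Figure D4:**
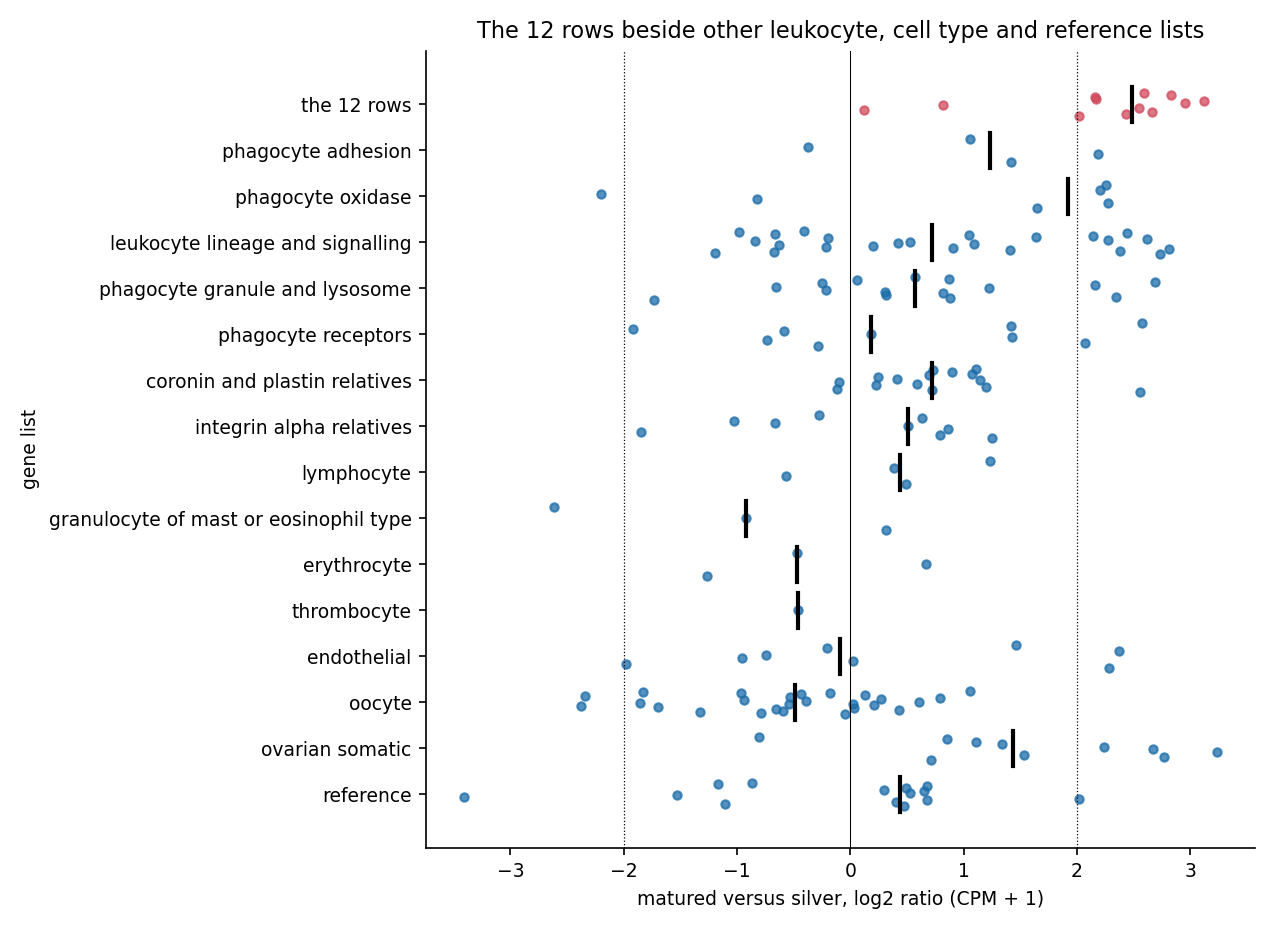
Log2 ratio of matured versus silver after adding 1 CPM, for the 12 rows (red) and for the rows of 15 gene lists with at least 1 CPM on average (blue), a line of points per list, with the median as a black bar and 4-fold as dotted lines. The 12 rows have a median of 2.49, the phagocyte oxidase list one of 1.93, the phagocyte receptor list one of 0.18, and the oocyte list one of -0.48.

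Markers of other cells in the ovary were summed over all rows of each list, and their part in the levels of the 12 rows was not tested. Lymphocyte rows summed to 3.50, 8.25 and 14.3 CPM in the yellow, silver and matured libraries over 18 rows, none of which reached 10 CPM. Among them the T cell receptor beta chain tcb had 0.150, 0.716 and 3.03 CPM, and the 4 rows of the T cell kinase lck differed among themselves. Of these, g24014 had 0, 1 and 37 reads, g10121 had 0, 10 and 3, g14887 had 1, 1 and 11, and g35644 had 3, 0 and 0. The lymphocyte list holds no immunoglobulin chain, so its sum leaves those out. The Ig kappa chain row igkc g39609 had 2.29, 11.5 and 89.7 CPM in the yellow, silver and matured libraries. Erythrocyte rows summed to 4.62, 15.7 and 14.4 CPM over 7 rows, with the globin hbba at 2.52, 10.1 and 7.05 CPM. Endothelial rows summed to 47.2, 44.3 and 43.3 CPM over 17 rows, and thrombocyte rows to 2.86, 2.52 and 0.896 CPM over 5 rows. Rows of mast and eosinophil type granulocytes summed to 11.5, 23.1 and 10.8 CPM over 6 rows. Of the oocyte list, 2 of 25 testable rows were at least 4-fold lower in matured versus silver and 0 higher, against 4.61% and 2.23% of all genes. They were zp1 g15786, an egg coat gene, with 3895, 7290 and 1405 CPM, and the egg arrest kinase mos, with 419, 1108 and 219 CPM. Ovarian somatic rows summed to 23.0, 96.6 and 526 CPM over 15 rows. Of 5 testable rows among them, 3 were at least 4-fold higher in matured versus silver, against 2.23% of all genes. All 3 were rows of the androgen-making enzyme cp17a.

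The rows nearest in pattern to each of the 10 rows that reached 10 CPM were found by distance in the 2 log2 ratios, over 3 libraries and 11706 named rows, which is a description of likeness only. Both ratios had 1 CPM added, so rows at different levels can lie close together while their plain ratios differ. Some of the nearest rows were among the 12 themselves: plsl g22769 lay 0.05 from cor1a g4014, plsl g30240 lay 0.15 from cor1a g21858, and lyg g11846 lay 0.33 from itam g10214. The transcription factor spi1 lay 0.14 from cor1a g21858 and 0.09 from plsl g30240, which had the lysosomal protease cath (cathepsin H) at 0.09 as well. The adenosine deaminase ada lay 0.04 from plsl g22769 and 0.09 from cor1a g4014. Nearest to cor1a g22693 was tm119 at 0.04, and nearest to cor1a g21858 was frpd4 at 0.07. Nearest to plsl g30264 were fat3 at 0.05, lpp1 at 0.10 and desp (desmoplakin, of cell junctions) at 0.12. Few rows lay near lysc: s10i (ictacalcin, a calcium-binding protein) at 0.08 and nid2, a basement membrane protein, at 0.23 were the only named rows within 0.5. By contrast 1435 named rows lay within 0.5 of lyg g4949. The cp17a row g10692 was the nearest to itam g10214, at 0.31, with 2.29, 14.0 and 101 CPM in the yellow, silver and matured libraries. The Ig kappa chain row igkc g39609 was the next, at 0.32.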

How the data were processed

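Ovary RNA from 3 eels, 1 per stage, was measured with libraries made from 10 micrograms of total RNA each, per the labels' protocols. Gene models are from Augustus, names from Blast2GO and read counts from CLC bio, per the file headers, and no source used here gives the genome build. The counts are the authors' deposited corrected total reads, which include distributed multiple alignments, and their unique reads were used as an alternative. The RPKM values are those deposited by the authors. The authors' own comparisons were not used. The line of column totals was left out, and it holds no reads of its own. TMM factors (0.957, 0.910 and 1.15) came from edgeR 4.0.16 in R 4.3.3, and intervals are Clopper-Pearson, from scipy 1.17.1. Since PCR copies molecules, the intervals and floors account for counting error alone. No p-value was computed. The steps were tested on simulated counts. Alternatives were DESeq2 1.42.0 size factors, library totals, unique reads, pseudocounts of 0.1 and 5 CPM, no filter, and RPKM. The members, gene lists and naming rule were chosen with earlier results of these data known. The rule covered all members, up to 4 rows per list with the largest log2 ratio of matured versus silver and at least 10 CPM, and the 3 nearest rows of each member. Not all of these list rows and nearest rows are given above, so those given are a selection. The itb2, cy24b, ncf1, csf1r, syk, ptn6, ship1, cebpb, cd68, c5ar, tcb and lck rows were named outside the rule, after their values were seen. The values of 1 listed gene are not reported here.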

Additional observations from a re-analysis of the deposited data

How the results depend on the processing

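Across 288 recomputed log2 ratios of the 12 rows, from 7 other settings and 1 added later, 0 changed sign. Another pseudocount cannot change a sign, and dropping the filter leaves every ratio as it was. Of the 272 ratios that have a counting interval, 34 are from dropping the filter and could not move. Of the 272, 60 moved by more than the interval, 39 of them with another pseudocount. The other 16 of the 288, of lyg g11847 against its 0 yellow reads, have no such interval. The later one, chosen after seeing the data, removed the trend over transcript length. With a pseudocount of 5 CPM, 2 rows were at least 4-fold higher in matured versus silver and 3 in matured versus yellow, in place of 9 and 9; that pseudocount shrinks ratios of low rows by construction. In silver versus yellow the count went from 0 to 1, the lysc row, with no filter on low values and also with the authors' RPKM. The counts at least 4-fold lower were 0 under each of these alternatives, which follows from no ratio having changed sign. In matured versus silver lysc fell below 4-fold with DESeq2 size factors and with the length trend removed (log2 ratio 1.79). Levels in the yellow library rest on 0 to 54 reads in the rows other than lyg g4949, which limits their folds. No paired analysis was possible because each stage has 1 eel. Leaving out a replicate could not be done for the same reason.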
